A study of Mus musculus with 8 samples.

Results

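Actb and Tuba1b, the genes of cytoplasmic beta-actin and of an alpha-tubulin, were followed through 3 cultured groups of mouse aortic smooth muscle cells and through whole aorta and liver. Both were found by the RefSeq accession that the array files give for a probe (NM_007393.3 for Actb and NM_011654.2 for Tuba1b), matched without its version to a RefSeq gene table. They are 2 of the 15 probes that carry a gene's accession and 20 spots each, among 60930 probes in all. They were chosen by gene, with earlier results of these data known. RNA was measured on 8 one-colour arrays whose probes cover mouse mRNAs and long non-coding RNAs.

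The cultured cells were at passage 3, had received adenovirus (multiplicity of infection 100) and were collected 3 days later. One group was wild type with an empty adenovirus (AdEmpty), another was Srf knockout (SRFknockout) with AdEmpty, and the other was wild type with a Myocd adenovirus (AdMyocd). Each cultured group had 2 arrays, and freshly isolated wild-type aorta and liver had 1 array each. All cultured groups carried an adenovirus, while the titles of the tissue samples name none, so a tissue can differ from the cultures in virus as well as in culture. The tissue arrays also lay on slide 2, and the wild-type arrays with empty virus on slide 1. How Srf was deleted, and the age, strain and number of the mice, are not given in the sources used here. Whether replicates are separate cultures or animals is not stated, so the p-values reflect only the spread between these arrays, and this spread may be technical.

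Actin filaments give a smooth muscle cell its tension and shape, and microtubules, built from alpha- and beta-tubulin, carry transport and help to set cell form. Serum response factor, encoded by Srf, binds a DNA element called the CArG box in front of actin and many other cytoskeletal and contractile genes. Its coactivators include myocardin, encoded by Myocd, which is restricted to smooth and cardiac muscle, and the myocardin-related factors, which respond to the pool of unpolymerised actin. Actb is a classical target of this pathway, and Tuba1b stands beside it here as a gene of the other main filament system.

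The RefSeq promoter table (GRCm38.p6) matched 1 of the 2 genes, Tuba1b. The 250 bases before its annotated start, at chr15:98934391-98934640 on the minus strand, are shown because they are the stretch searched for the element through which serum response factor binds.
Tuba1b promoter: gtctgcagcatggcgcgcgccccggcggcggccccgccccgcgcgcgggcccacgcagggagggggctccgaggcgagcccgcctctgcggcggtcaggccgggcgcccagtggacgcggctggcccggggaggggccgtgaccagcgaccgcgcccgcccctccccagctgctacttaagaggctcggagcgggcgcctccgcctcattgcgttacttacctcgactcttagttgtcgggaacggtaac
Capitals would mark a CArG box on either strand, or a sequence 1 base away from it, and there are none in this window. The full box was found in 1.47% of the 32851 windows of this length in the table, and a match with at most 1 mismatch in 18.6%. A match or its absence describes only the letters of this window. The stretch is 75.6% G and C.

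Both probes were bright on every array and measured with little error within an array. A level is the mean log2 processed intensity of a probe's spots minus the 75th percentile of all probes on that array, so 1 unit is a 2-fold difference. All 20 spots of each gene were well above background on all 8 arrays, none was saturated, and the SD between the spots of one array was 0.031 to 0.095 on the log2 scale. At most 4 of 20 spots were left out as outliers on an array. The mean intensity of the 2 genes was between 29.3% and 57.6% of the scanner's saturation value in cultured cells. It was 18.5% for Actb and 10.0% for Tuba1b in aorta, and 3.96% and 4.04% in liver. The 15 probes whose names mark them as negative had median levels from -7.25 to -5.64, against 7.54 or more for both genes.

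**Figure D1:**
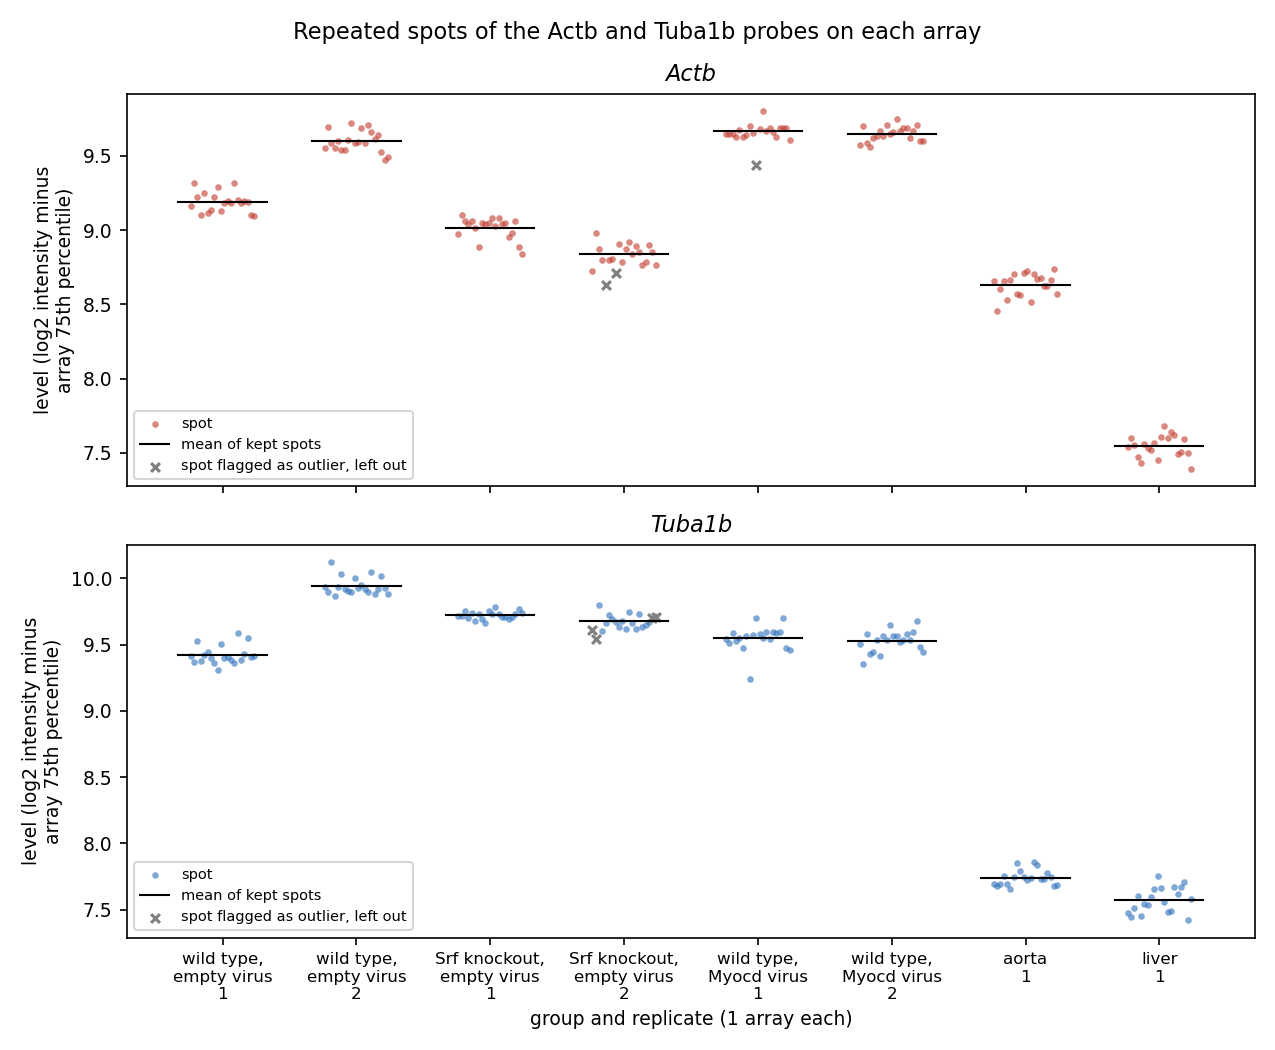
Level of each of the 20 spots of the Actb probe (upper panel) and the Tuba1b probe (lower panel) on each of the 8 arrays, as log2 intensity minus the array's 75th percentile; black bars are means of the kept spots and crosses are spots left out as outliers. Spots of one array lie close together, the wild-type arrays lie apart for both genes, and both genes are lowest in liver.

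Actb stood highest with Myocd, lower in wild-type cells and lowest of the cultures without Srf. Its level was 9.19 and 9.60 on the wild-type arrays, 9.01 and 8.84 on the knockout arrays, and 9.67 and 9.65 on the Myocd arrays. The 3 groups did not overlap, although the lower wild-type array lay only slightly above the higher knockout array and the higher wild-type array only slightly below both Myocd arrays. Lack of overlap between 2 groups was common, at 56.9% to 71.7% of tested probes over the 3 contrasts. The share of probes with all 3 groups apart was not computed. Group means were 9.39 ± 0.29 in wild-type, 8.93 ± 0.12 in knockout and 9.66 ± 0.013 in Myocd cells (SD, n = 2 each).

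Tuba1b showed no such order. Its level was 9.42 and 9.94 on the wild-type arrays, 9.72 and 9.67 on the knockout arrays, and 9.55 and 9.53 on the Myocd arrays. The wild-type arrays enclosed all the others, so that both other groups lay within the wild-type range. Group means were 9.68 ± 0.37 in wild-type, 9.70 ± 0.034 in knockout and 9.54 ± 0.016 in Myocd cells (SD, n = 2 each).

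Whether loss of Srf changes the amount of actin mRNA was asked by setting knockout against wild-type cells, which shared slide 1. Actb was 1.38-fold lower without Srf, a log2 change of -0.47 (SE 0.18, 95% interval -0.92 to -0.02, limma adjusted p = 0.127), and did not pass the threshold of 0.05 after adjustment over 44081 probes. Tuba1b had a log2 change of 0.02 (SE 0.20, 95% interval -0.47 to 0.51, limma adjusted p = 0.964). The interval for Tuba1b reaches 1.39-fold lower and 1.42-fold higher expression, so a change as large as that of Actb is not excluded by its own test. In this contrast 20.6% of tested probes passed and 8.40% passed as lower. Arrays of the groups did not overlap for 62.7% of tested probes, so the lack of overlap for Actb is common here. A change larger in size than that of Actb was found for 39.3% of tested probes.

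How far Actb lay from the knockout depended on the wild-type array used. Without wild-type replicate 1 the log2 change of Actb was -0.67 and passed (limma adjusted p = 0.0410). It was -0.26 when wild-type replicate 2 was left out (limma adjusted p = 0.250). Tuba1b moved with it, to -0.25 and 0.28 (limma adjusted p = 0.252 and 0.191). Its sign therefore depended on which wild-type array was used, and also on the scaling, since it was -0.03 when arrays were scaled to the median of the probes well above background on all 6 cultured arrays.

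Whether extra myocardin raises actin mRNA was asked by comparing Myocd with empty adenovirus in wild-type cells. Actb was 1.20-fold higher with Myocd than with empty virus, a log2 change of 0.26 (SE 0.18, 95% interval -0.18 to 0.71, limma adjusted p = 0.387). Tuba1b had a log2 change of -0.15 (SE 0.20, 95% interval -0.64 to 0.34, limma adjusted p = 0.670), whose sign turned to 0.02 under quantile normalization. Neither passed, while 15.2% of tested probes did, and 56.9% of tested probes had groups that did not overlap. The log2 change of Actb was 0.06 when wild-type replicate 1 was left out and 0.47 when replicate 2 was (limma adjusted p = 0.807 and 0.0910). The Myocd arrays lay on slide 2 and the wild-type arrays on slide 1, so slide and Myocd cannot be told apart.

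The largest distance among the cultures was that between Myocd and knockout cells, and here Actb passed. It was 1.66-fold higher with Myocd than without Srf, a log2 change of 0.73 (SE 0.18, 95% interval 0.28 to 1.18, limma adjusted p = 0.0306). Tuba1b had a log2 change of -0.16 (SE 0.20, 95% interval -0.65 to 0.33, limma adjusted p = 0.601). Of all tested probes, 28.0% passed in this contrast and 11.7% passed as higher with Myocd, and groups did not overlap for 71.7%, both genes among them. The call of Actb was lost without either knockout array or either Myocd array, with log2 changes from 0.64 to 0.82 (limma adjusted p from 0.106 to 0.166). It was also lost with no filter on dim probes (limma adjusted p = 0.0622) and with the replicate number as a block (limma adjusted p = 0.0610). This contrast also lies across slides and differs in genotype as well as in virus.

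**Figure D2:**
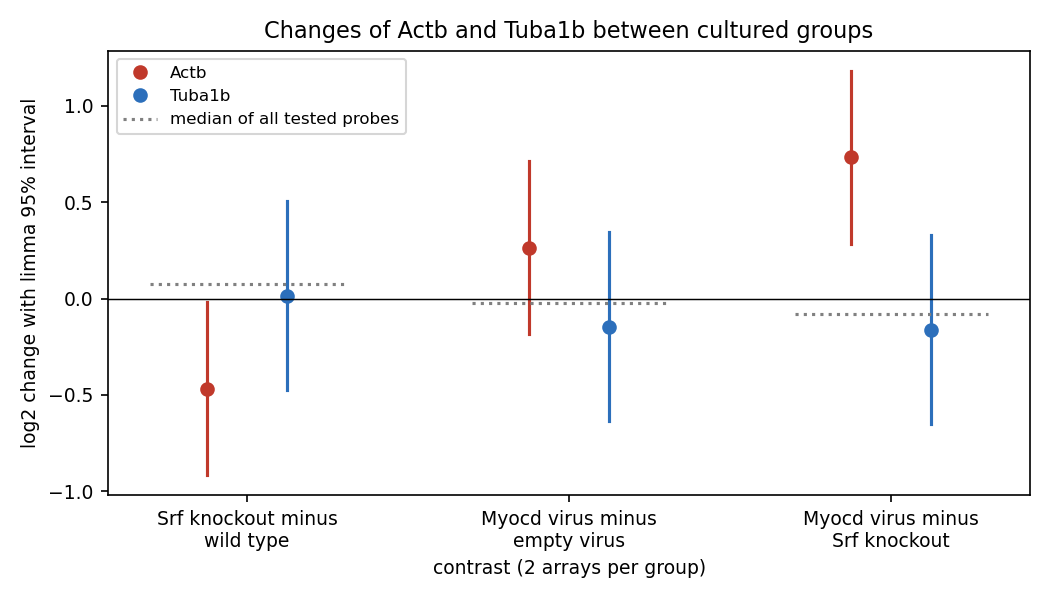
Log2 change of Actb (red) and Tuba1b (blue) in the 3 contrasts of cultured groups, with limma's 95% interval (vertical lines) and the median change of all tested probes (dotted). The interval of Actb excludes 0 by a narrow margin for the knockout and clearly for Myocd minus knockout, where Actb alone of the 2 genes passed after adjustment (limma adjusted p = 0.0306); the intervals of Tuba1b span 0 in all 3.

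Much of the spread of both genes between the wild-type arrays was shared. Replicate 2 was higher than replicate 1 by 0.41 for Actb and by 0.52 for Tuba1b, against a mean of 0.16 over the other 13 identified 20-spot probes. The median absolute gap between wild-type arrays over all tested probes was 0.29, against 0.15 between the knockout arrays and 0.15 between the Myocd arrays. The gap between replicates was -0.17 for Actb and -0.05 for Tuba1b in the knockout, and -0.02 for both with Myocd.

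The difference between Actb and Tuba1b within an array is the same whatever constant is subtracted from that array, and it separated the cultured groups by more than it varied within them. Quantile normalization is not of that kind and can move it. Different probes do not share a scale, so this difference is given relative to its wild-type mean. The wild-type arrays lay at 0.06 and -0.06, the knockout arrays at -0.42 and -0.55, and the Myocd arrays at 0.41 and 0.41. Knockout arrays were thus all low, Myocd arrays all high, and no groups overlapped. With each tested probe set against Tuba1b in the same way, groups did not overlap for 50.6% of probes between knockout and wild type, 46.1% between Myocd and wild type and 71.9% between Myocd and knockout. A lack of overlap is therefore common on this scale too. The share of probes whose groups lay further apart than the arrays within them was not computed. Relative to Tuba1b, Actb was 1.40-fold lower in knockout than in wild-type cells, a log2 difference of -0.48. The nearest arrays of these groups were 0.36 apart, and the arrays within each group were at most 0.13 apart. With Myocd it was 1.33-fold higher than in wild-type cells, a log2 difference of 0.41, with 0.35 between the nearest arrays and at most 0.11 within a group. Between Myocd and knockout cells the difference was 0.89, or 1.86-fold. With quantile normalization, tried after the data were seen, the 3 differences were -0.43, 0.41 and 0.84.

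With 2 arrays against 2, an exact two-sided permutation test of each of these 3 differences gave its smallest possible p of 0.333. A limma fit of the 6 arrays with every probe scaled to Tuba1b, chosen after the data were seen, gave Actb the same 3 differences. Myocd against knockout passed (limma adjusted p = 0.0222), while knockout against wild type (limma adjusted p = 0.174) and Myocd against wild type (limma adjusted p = 0.271) did not. On this scale 17.1%, 9.80% and 7.35% of tested probes passed in these contrasts, in the same order. Leaving out any single array kept the knockout difference between -0.55 and -0.42, the Myocd difference between 0.35 and 0.47, and the difference between these groups between 0.83 and 0.96.

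**Figure D3:**
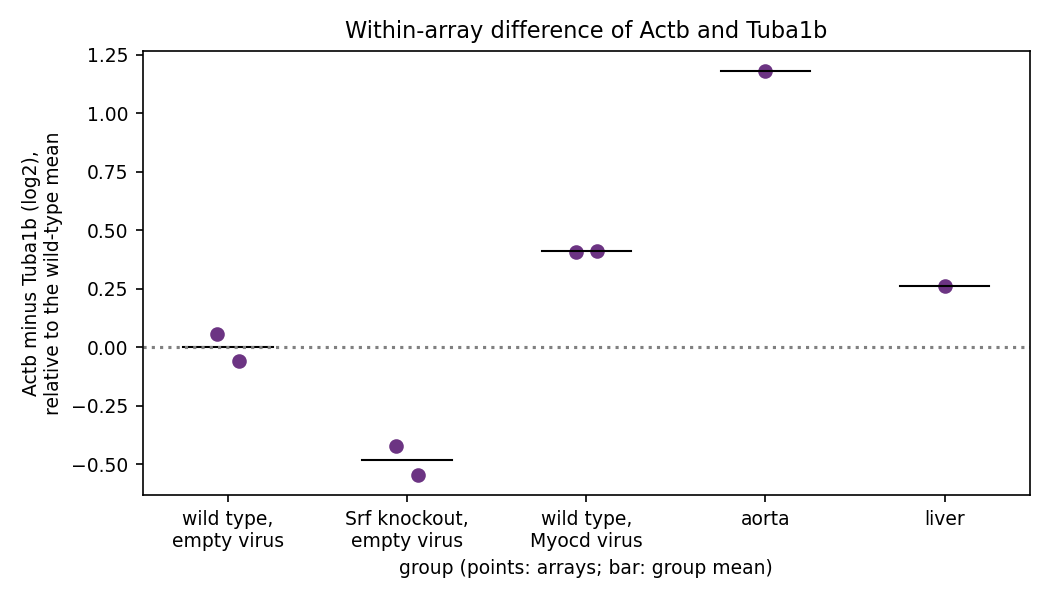
Within-array log2 difference of Actb minus Tuba1b, relative to the mean of the wild-type arrays; each point is an array and each bar a group mean. The knockout arrays lie at -0.42 and -0.55, both Myocd arrays at 0.41, and the single aorta array stands highest at 1.18.

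Control spots on each array probe mouse Pgk1 and Gapdh near their 5′ and 3′ ends, which bear on how evenly transcripts were labelled. The 3′ minus 5′ log2 difference of Pgk1 was 3.09 and 3.57 on the wild-type arrays, 3.91 and 3.58 on the knockout arrays, and 3.16 and 3.15 on the Myocd arrays. Both knockout arrays lay above both wild-type arrays, replicate 2 by little and replicate 1 by more, and for Gapdh the cultured groups lay between -0.62 and -0.33. On the aorta array the Pgk1 difference was 4.60, above every cultured array, and the Gapdh difference was -0.36, within the cultured range. The part of these differences in the values of Actb and Tuba1b was not tested.

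In whole aorta both genes were below cultured wild-type cells, Tuba1b by more than Actb. The single aorta array had an Actb level of 8.63 and a Tuba1b level of 7.74. Against the wild-type cells, Actb was 1.70-fold lower, a log2 difference of -0.76, and Tuba1b was 3.84-fold lower, a log2 difference of -1.94. Levels at least 2-fold lower in aorta were found for 21.6% of the 37619 probes well above background on the arrays compared, so Tuba1b is 1 of many. The difference between the genes moved by 1.18, a 2.27-fold higher ratio of Actb to Tuba1b than in wild-type cells, which is beyond every cultured array. With 1 array per tissue there is no replicate and no test, and in bulk RNA fewer cells of a type and less RNA per cell cannot be told apart. Aorta and liver lay on slide 2 and these wild-type arrays on slide 1, so slide and tissue cannot be told apart against wild-type cells.

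How far each gene lay below the cultures depended on the scaling. When arrays were scaled to the other 13 identified probes, an alternative chosen after the data were seen, Actb in aorta stood at 0.18 above wild-type cells and Tuba1b at -0.997. These 13 probes were themselves uneven between aorta and wild-type cells, from -2.88 for Rpl13a to 2.83 for Gk on the main scale. The other scalings kept both genes lower in aorta, from -1.04 to -0.43 for Actb and from -2.22 to -1.65 for Tuba1b.

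Liver had the lowest level of both genes. The single liver array had an Actb level of 7.54 and a Tuba1b level of 7.57. Against wild-type cells, Actb was 3.61-fold lower and Tuba1b 4.32-fold lower, where 21.2% of 33231 probes were at least 2-fold lower. These sizes depended on the scaling, as in aorta: the log2 differences of -1.85 and -2.11 became -0.70 and -0.96 with the 13-probe scaling and -2.38 and -2.72 with quantile normalization. Both genes were lower by a like amount, so that their difference moved by 0.26 relative to wild-type cells, between the wild-type and the Myocd arrays. Between the tissues, Actb was 2.13-fold higher in aorta than in liver and Tuba1b 1.12-fold higher, while 18.6% of 34705 probes were at least 2-fold higher in aorta. The tubulin value turned to -0.04 with the 13-probe scaling and grew to 1.07 with quantile normalization, whereas Actb stayed between 0.88 and 1.96 higher in aorta.

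The liver array stood apart in its control spots. None of its 10 spots for the 5′ end of Pgk1 was well above background, while all 10 were on each other array. Its 3′ minus 5′ difference of Gapdh was 1.88, against -0.62 to -0.33 on the other arrays. The 75th percentile of its intensity was 165, against 364 in aorta and 452 to 498 in cultured cells, and 62.2% of its probes were well above background, against 68.2% to 74.7% on the cultured arrays. The part of these in the liver values was not tested.

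**Figure D4:**
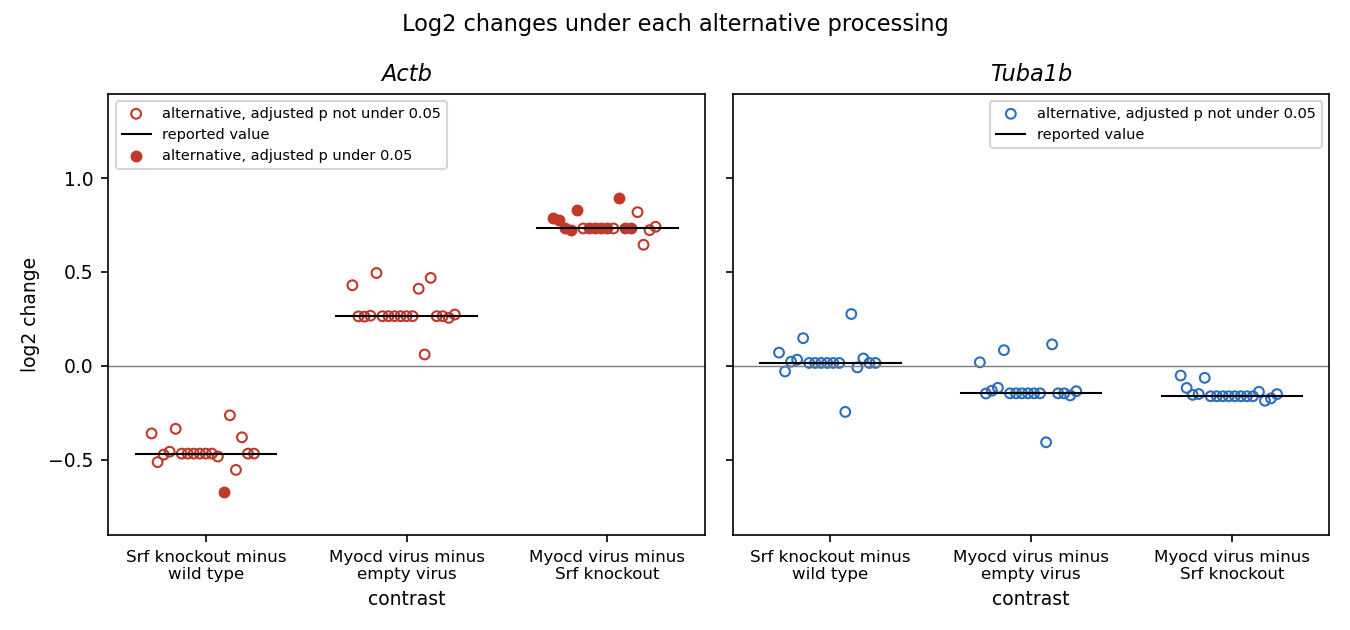
Log2 changes of Actb (left) and Tuba1b (right) in the 3 contrasts of cultured groups under each alternative processing, leaving out single arrays included; filled points have a limma adjusted p under 0.05 and bars are the reported values. Actb keeps its sign in each contrast, from -0.67 to -0.26, from 0.06 to 0.49 and from 0.64 to 0.89, while Tuba1b crosses 0 in the first 2 contrasts.

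No other gene of these pathways could be set beside the 2. Of 36 genes listed as actin cytoskeleton and known targets of serum response factor, only Actb was among the 15, and of 18 tubulin and microtubule genes only Tuba1b. None of the 6 gene names listed for the myocardin family and the manipulated genes, older symbols included, was among the 15. The labels were therefore not checked against Srf or Myocd. The same holds for 7 smooth muscle markers and 5 hepatocyte markers, so the tissue labels were not checked against these. The probe sequences are not used here, and both genes have near-identical relatives, the gamma-actin gene Actg1 for Actb and Tuba1a and Tuba1c for Tuba1b, so a share of the signal from these is uncertain.

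Among the other 13 identified 20-spot probes, likeness was measured as the root mean square difference between group means centred over the 5 groups. The pattern nearest to Actb was that of Gusb, the lysosomal beta-glucuronidase gene, at 0.70, followed by the cyclophilin gene Ppia at 0.75. Nearest to Tuba1b were the ribosomal protein gene Rpl13a at 0.31 and Gusb at 0.45. Tuba1b itself lay 0.55 from Actb. The tissues, each a single array, are 2 of the 5 groups in this measure. Over the 3 cultured groups alone the order was another, and the genes named for it were chosen after their values were seen. Gapdh at 0.17 and Gk at 0.21 were then nearest to Actb, with Gusb at 0.63, and Ppia at 0.092 and Hprt at 0.093 nearest to Tuba1b, with Rpl13a at 0.27. Relative to wild-type cells, Gusb stood at -1.66 in aorta and -3.02 in liver, and Rpl13a at -2.88 and -2.48. Unlike Tuba1b, Rpl13a passed with Myocd against empty virus, at -0.72 (limma adjusted p = 0.0410). It stood at -0.54 in the knockout (limma adjusted p = 0.0743). In the cultures Gusb had log2 changes of 0.25 in the knockout and -0.55 with Myocd, opposite in sign to those of Actb, and neither passed (limma adjusted p = 0.277 and 0.0584). Between Myocd and knockout cells Gusb had a log2 change of -0.80, which passed (limma adjusted p = 0.0104), where Actb passed in the other direction. The order of Actb in the cultures was not its own. Tfrc, at 0.76 from Actb over the 5 groups, changed in the same directions and by more. It stood at -1.22 in the knockout (limma adjusted p = 0.0126) and at 0.33 with Myocd (limma adjusted p = 0.357). Between Myocd and knockout cells it had a log2 change of 1.55 (limma adjusted p = 0.00342). G6pd2 went the other way, as Gusb did, at 0.87, -1.67 and -2.53 in these contrasts.

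**Figure D5:**
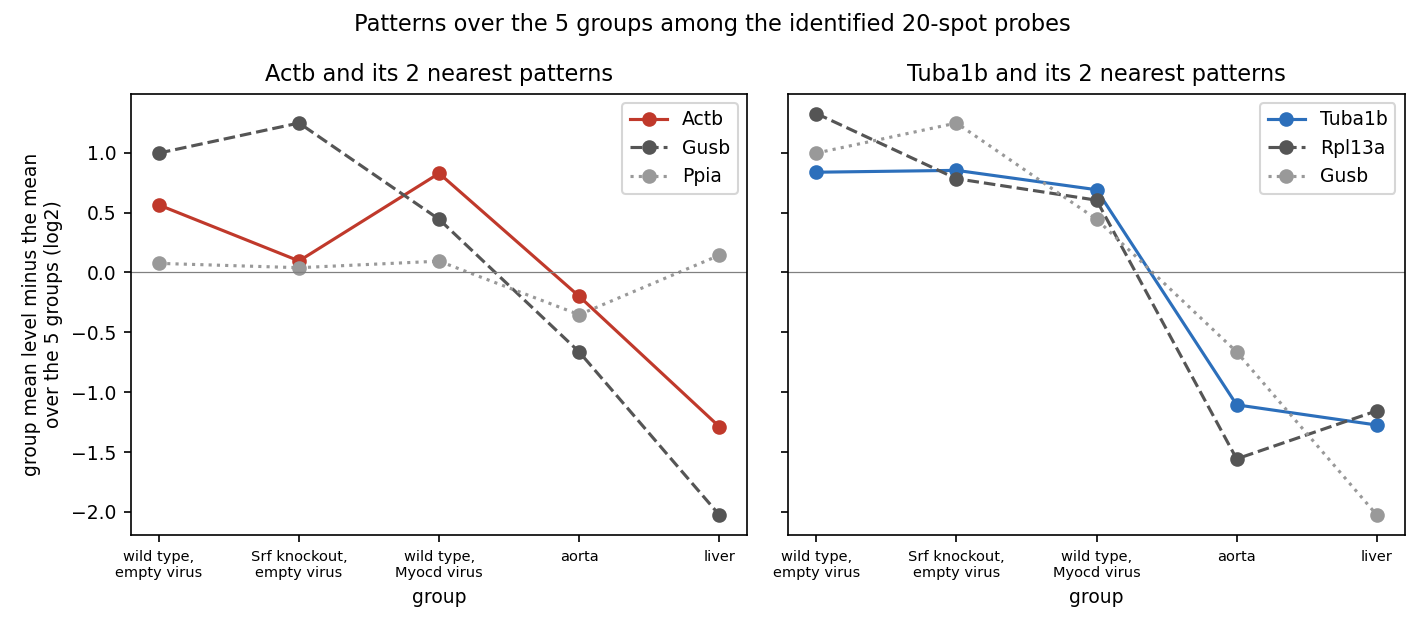
Group mean level of Actb (left) and Tuba1b (right), each with the 2 nearest patterns among the identified 20-spot probes, as log2 level minus the gene's own mean over the 5 groups; lines only join the values of a gene. Rpl13a runs closest to Tuba1b (0.31), while Gusb and Ppia stay 0.70 and 0.75 from Actb.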

How the data were processed

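RNA of 8 samples was read on one-colour Cy3 arrays. The authors used Agilent Feature Extraction 11.0.1.1, per the file headers, to obtain for each spot a background-subtracted processed intensity that is not scaled between arrays. Deposited log2 values of the same arrays, with a normalization not given in the sources used here, hold neither Actb nor Tuba1b and served only as an alternative for counts of probes. Outlier-flagged spots were left out, the spots of a probe were averaged as log2, and each array's 75th percentile over the 60930 probes outside the control classes was subtracted. Testing was limited to the 44081 probes for which at least 1 cultured group was well above background on both its arrays. The 3 cultured groups were fitted together with limma 3.58.1 (lmFit and eBayes, two-sided, 3 residual degrees of freedom) in R 4.3.3, with Benjamini-Hochberg adjustment over all tested probes and a threshold of 0.05. Tissues, with 1 array each, were compared by log2 differences only. The fit was tested on simulated data.

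The members, the gene lists and the alternatives were chosen with earlier results of these data known. Named genes were Actb and Tuba1b, any identified gene of the fixed lists, and the 2 identified 20-spot probes nearest to each member. Gapdh, Gk, Hprt, Tfrc and G6pd2 were named after their values were seen. The fixed marker lists were smooth muscle, fibroblast, endothelial, hepatocyte, blood and immune, and adipocyte. No member of any was among the 15 identified 20-spot probes, the only probes searched. Normexp used the spot medians, since the files hold no mean signal. Replicates of a group correlated at 0.988 to 0.995 over tested probes and none were identical. The number of arrays limits the precision.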

Additional observations from a re-analysis of the deposited data

How the results depend on the processing

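In the knockout contrast, 17 of 18 alternatives left Actb on its side of the threshold; without single arrays it ranged from -0.67 to -0.26. The value of Tuba1b turned negative when arrays were scaled to the median of probes well above background (-0.0297), and without single arrays it ranged from -0.25 to 0.28. With Myocd against empty virus, all 18 alternatives left Actb not passing and above 0 (0.06 to 0.47 without single arrays), while Tuba1b turned to 0.0191 with quantile normalization and to 0.0836 with the 13-probe scaling (-0.41 to 0.11 without single arrays). For Myocd against knockout, Actb passed in 12 of 18 alternatives. It was lost at 0.73 with no filter on dim probes and with the replicate block (limma adjusted p = 0.0622 and 0.0610), and without single arrays it ranged from 0.64 to 0.82. Fits without an array of the group outside a contrast are the same fit as that of only the groups compared and enter these tallies repeatedly. The deposited log2 values gave no value for either gene.

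Counts of probes passing ranged without single arrays from 2701 to 13176 for knockout against wild type (9096 on all arrays), from 2155 to 9213 for Myocd against empty virus (6695) and from 5957 to 16176 for Myocd against knockout (12331). The count for Myocd against empty virus was also 4211 with no filter, 3906 with only the groups compared and 4385 with the replicate block. The labels give shared replicate numbers but no shared source, and deviations of same-numbered arrays correlated at -0.26, -0.07 and 0.09 over probes. With 2 arrays per group these correlations cannot decide whether the numbers pair the samples, so pairing is unknown. With the replicate block the knockout contrast called 6377 probes, and 8237 with the knockout numbers crossed. The block changed no call of the 2 genes other than that of Actb for Myocd against knockout.

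For the tissues, the median scaling took the probes well above background on all 8 arrays. Aorta minus wild type, for Actb and Tuba1b in turn, was -0.43 and -1.65 with quantile normalization, -1.04 and -2.22 with the median scaling and 0.18 and -0.997 with the 13-probe scaling. Liver minus wild type was -2.38 and -2.72, -2.32 and -2.58, and -0.70 and -0.96 in that order, and -2.15 and -2.40 with normexp. Aorta minus liver for Actb was 1.96, 1.28, 0.88 and 1.32 in that order, and for Tuba1b it was 1.07 with quantile normalization and 0.41 with normexp. The cause of these shifts was not tested. The within-array difference of the 2 genes kept its sign in every comparison with normexp, the median of all spots and quantile normalization, which moved it in liver minus wild type to 0.332.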
